A study of Mus musculus with 12 samples.

Results

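Polyadenylated transcripts end where the nascent RNA is cut and a poly(A) tail is added, and in most cases the cut follows a short hexamer, the polyadenylation signal, that the cleavage and polyadenylation specificity factor recognises. The sites described here are the ends for which no such hexamer was listed, which lay in company with other ends of the same strand, and which nevertheless had no end with a listed hexamer close by. They are called signal-less run sites below. A site entered this set when its listed hexamer was "none", when another poly(A) site cluster of any kind lay on the same chromosome and strand within 2000 nt, measured edge to edge, and when no cluster with a listed hexamer lay on that strand within 100 nt. The rule was met by 9498 of the 145179 clusters of the catalogue (6.54%), or 60.5% of the 15698 signal-less clusters that remained after the mitochondrial chromosome was left out. Of the remaining signal-less clusters, 3462 had a listed site within 100 nt and 2738 had no neighbour within 2000 nt.

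The catalogue came from mouse embryonic stem cells derived from the V6.5 line, in clones that carried a conditional knockout of Exosc3, a core subunit of the nuclear RNA exosome, in all groups. The labels gave 12 libraries in 6 groups of 2: no doxycycline with a U1 AMO, no doxycycline with a Scr AMO, no doxycycline for 3 days, and the 3 groups kept on doxycycline at 0.1 μg/ml that match them. Per the labels, doxycycline keeps Exosc3 expressed and its removal depletes it. An AMO is an antisense morpholino oligonucleotide, given at 15 μM 8 hours before RNA was collected on day 2. The U1 AMO masks the part of U1 snRNA that pairs with splice donors, and U1 snRNP is also known to hold back premature cleavage within genes. Ends were read by 2P-seq, a method whose reads mark the junction of transcript and poly(A) tail. Of the 7 columns of the catalogue, 0 held a value per library, so levels in any group, the effect of Exosc3 loss or of U1 inhibition, and read depth were not analysed here. How many clones the libraries came from was not stated. No annotation of the mm9 build was at hand, so genes, exons and introns are not named.

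Exosome substrates in mouse embryonic stem cells include upstream antisense RNAs, short transcripts that run away from promoters on the strand opposite to the gene, and prematurely ended transcripts near gene starts. Runs of closely spaced 3' ends are also known from the 3' untranslated regions of genes with tandem poly(A) sites. With an oligo-dT primed method, priming inside A-rich transcript sequence can give false ends without an upstream signal. No genome of the build was at hand, so the sequence around the sites was not read, and a part of such priming in the results below was not tested.

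The hexamers that matter here are those of the listed sites nearest to the signal-less run sites. The 6 most frequent are shown with the bases that differ from the canonical signal in capitals, named by the substitution counted from 1 at the 5' end.
canonical: AATAAA
A2T: aTtaaa
A1T: Tataaa
T3G: aaGaaa
A2G: aGtaaa
A5C: aataCa

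Most comparisons below set the signal-less run sites against listed sites of the same spacing. These were the 59097 clusters that had a listed hexamer and met the same conditions on neighbours, namely another site within 2000 nt and no other listed site within 100 nt. Differences were computed on each of the 19 autosomes and tested with a 2-sided sign-flip permutation test over autosomes, with p-values adjusted over 16 comparisons. Autosomes are not biological replicates, and the p-values measure how evenly a difference held over the genome, not how it would repeat in other cultures. Intervals are 95% Wilson intervals over sites, which neighbouring sites make too narrow.

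Signal-less run sites lay upstream of their listed neighbours more often than downstream of them. A listed site lay within 2000 nt downstream only for 40.3% of them (interval 39.3 to 41.3%), upstream only for 17.2%, on both sides for 34.5%, and on neither side for 7.96%. For the listed sites of the same spacing the shares were 31.1% downstream only, 32.1% upstream only, 32.8% on both sides and 4.10% on neither. The nearest listed site within 2000 nt lay downstream for 62.4% of signal-less run sites (5453 of 8737, interval 61.4 to 63.4%), against 48.6% of listed sites (48.2 to 49.0%). Over autosomes the mean difference came to 13.8 percentage points ± 2.58 (SD, n = 19) and was above 0 on 19 of 19 (sign-flip permutation test, adjusted p = 1.33e-05). Listed sites are each other's neighbours, so their 2 sides come close to balance by construction, and the comparison in effect sets the signal-less run sites against an even split. Where only the most upstream site of each kind was taken from a run, the difference turned to -26.6 percentage points. Of the 22890 listed sites chosen in that way, 2512 had a listed site upstream of them in their run, so the choice itself sets their side. Where the most downstream site was taken, the difference was 54.6. Of the listed sites chosen there, a mean of 6.64% had their nearest listed site downstream, so the choice again sets their side. The nearest site of any kind lay downstream for 57.5% of signal-less run sites and 46.7% of listed sites in the mean over autosomes, a difference of 10.9 percentage points ± 2.09 (SD, n = 19; sign-flip permutation test, adjusted p = 1.33e-05). It was 19.8 within runs that held both kinds, and -11.3 and 39.99 with the most upstream and the most downstream site of each run. The last values again reflect which listed site was chosen. Within runs, a signal-less run site and a listed site that are each other's nearest site count from both sides. The value of 19.8 is therefore not on the scale of 10.9.

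The imbalance varied with the gap. At gaps over 100 and up to 200 nt, 1342 signal-less run sites had their nearest downstream listed site there and 1087 their nearest upstream listed site, a ratio of 1.23. The ratio was 1.52 at 301 to 500 nt (1301 against 856) and 1.65 at 501 to 1000 nt (1887 against 1142), and it was 1.34 at 1501 to 2000 nt. For listed sites of the same spacing it stayed between 0.972 and 0.993 in all 6 ranges of gap. This too comes close to balance by construction, since a gap between neighbouring listed sites counts once on each side. The median gap to a listed site within 2000 nt was 501 nt downstream and 458 nt upstream of the signal-less run sites.

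**Figure D1:**
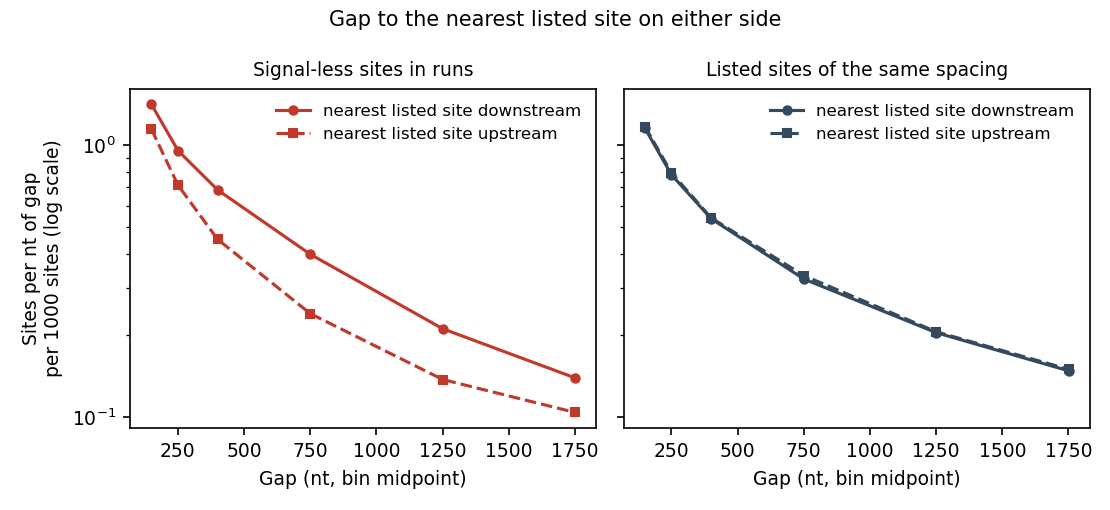
Sites per nt of gap per 1000 sites (log scale) against the gap in nt to the nearest listed site, at bin midpoints, downstream (solid line, circles) and upstream (dashed line, squares), for signal-less run sites on the left and listed sites of the same spacing on the right. On the left the downstream line lies above the upstream line in all 6 ranges, by a factor of 1.23 to 1.65. On the right the lines nearly coincide, which follows largely from listed sites being each other's neighbours.

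Same-strand sites with gaps of at most 2000 nt were treated as a run, and signal-less run sites closed a run less often than listed sites did. Signal-less run sites were the most downstream site for 16.3% (1548 sites, interval 15.6 to 17.1%), against 33.2% of listed sites of the same spacing (32.8 to 33.6%). The difference of -16.8 percentage points ± 1.64 was negative on 19 of 19 autosomes (SD, n = 19; sign-flip permutation test, adjusted p = 1.33e-05). They were the most upstream site for 33.8% (3207 sites), against 29.3% of listed sites. Here the difference was 4.88 percentage points ± 2.66, positive on 18 of 19 autosomes (sign-flip permutation test, adjusted p = 1.33e-05). It was 18.5 percentage points when each site was compared with the listed sites of its own run in the 5644 runs that held both kinds and each run counted equally. A run has a single first site, so a signal-less run site there keeps the listed sites of its run from that place. The value of 18.5 is therefore not on the scale of 4.88. With all listed sites of runs as the comparison the difference was 8.68. The other 49.9% of signal-less run sites stood in the middle of a run, against 37.5% of listed sites.

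**Figure D2:**
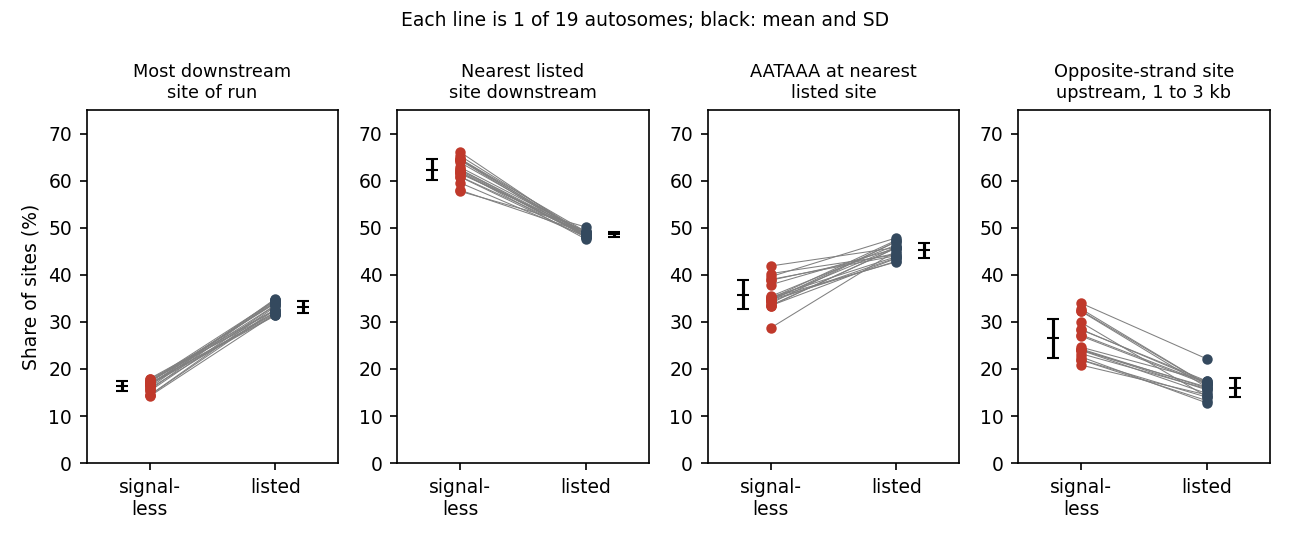
Share of sites in percent on each of the 19 autosomes (grey lines join the 2 values of an autosome), for signal-less run sites on the left and listed sites of the same spacing on the right of each panel, with mean and SD in black. On all 19 autosomes signal-less run sites were less often the most downstream site of a run and less often nearest to an AATAAA site, and more often had their nearest listed site downstream and an opposite-strand site upstream at 1 to 3 kb.

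The listed site nearest to a signal-less run site carried the canonical signal less often. AATAAA was listed there for 35.8% of signal-less run sites (3133 of 8742, interval 34.8 to 36.8%), against 45.3% of listed sites of the same spacing (44.9 to 45.7%). Over autosomes the difference was -9.46 percentage points ± 3.37, negative on 19 of 19 (SD, n = 19; sign-flip permutation test, adjusted p = 1.33e-05). ATTAAA, the most common variant, followed with 16.0% against 18.5%, and TATAAA with 5.26% against 5.62%. AAGAAA reached 5.16% against 3.54%, AGTAAA 4.69% against 4.26% and AATACA 3.08% against 2.64%. A-rich hexamers, which are those with 5 or more A other than AATAAA, were found at the nearest listed site of 16.4% of signal-less run sites (15.6 to 17.2%), against 9.94% of listed sites (9.69 to 10.2%). This difference was 5.97 percentage points ± 2.19, positive on 19 of 19 autosomes (sign-flip permutation test, adjusted p = 1.33e-05).

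Within shared runs both differences were smaller, at -3.72 percentage points for AATAAA (sign-flip permutation test, adjusted p = 0.000382) and 2.33 for A-rich hexamers (sign-flip permutation test, adjusted p = 0.0032). Among the 34 hexamers with at least 100 occurrences beside listed sites, the share beside signal-less run sites was higher for 30. All 13 A-rich hexamers were among these, with ratios of 1.26 to 2.39 and a median of 1.75, and the other 21 hexamers had a median ratio of 1.38. The 4 with a lower share were the canonical hexamer, its variants A2T and A1T shown above, and A5T (aataTa), whose ratio was 0.986. The shares add up to a fixed total, so the lower canonical and A2T shares raise the rest as a whole. The count of 30 and the A-rich difference are thus not independent of the AATAAA difference. The hexamer of the nearest listed site lay at 15 to 30 nt, the usual range of a polyadenylation signal, for 66.2% of signal-less run sites (65.2 to 67.2%) and 74.6% of listed sites (74.2 to 74.9%). From which point of a cluster this distance was counted was not stated, and these shares were not tested.

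Signal-less run sites also had other signal-less sites, of any class, nearby more often than listed sites did. Another signal-less site lay within 2000 nt of 58.5% of signal-less run sites (interval 57.5 to 59.5%), against 27.5% of listed sites of the same spacing (27.1 to 27.8%), with a difference of 29.8 percentage points ± 4.52, positive on 19 of 19 autosomes (SD, n = 19; sign-flip permutation test, adjusted p = 1.33e-05). Part of this share follows from the rule, since the 756 signal-less run sites without a listed site within 2000 nt met it only through a signal-less neighbour, as did 4.10% of the listed sites. Among sites of both kinds that had a listed site within 2000 nt, the shares averaged 53.5% and 24.2% over autosomes, and the difference was 29.3 percentage points ± 4.81, above 0 on 19 of 19 (sign-flip permutation test, adjusted p = 1.45e-05). Within 100 nt the shares were 21.4% (20.6 to 22.3%) and 4.21% (4.05 to 4.38%), a difference of 16.6 percentage points ± 3.11 (sign-flip permutation test, adjusted p = 1.33e-05). Signal-less sites with a listed site within 100 nt had similar shares, 57.7% within 2000 nt and 17.6% within 100 nt (not tested). A run that holds several signal-less sites counts once for each of them here. Of all signal-less run sites, 44.0% were the only signal-less run site of their run. With 1 site of each kind per run, the differences were 8.79 and 5.86 percentage points for the most upstream sites, and 12.2 and 7.36 for the most downstream sites. Within runs that held both kinds, the difference within 100 nt was 4.13 percentage points. That within 2000 nt turned to -54.8, with 35.0% of signal-less run sites and 89.7% of listed sites, because these runs were chosen to hold a signal-less run site, which can be a neighbour of the listed sites but not of itself.

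The gap to the nearest site entered the selection and is described without a test. The single nearest neighbour was itself signal-less for 41.6% of signal-less run sites, against 14.0% of listed sites. The nearest site of any kind lay at a median gap of 227.5 nt (quartiles 111 and 554.75 nt), against 408 nt for listed sites of the same spacing. Gaps of 26 to 50 nt to the nearest site were found for 1046 signal-less run sites (11.01%), against 1.64% of listed sites. Gaps of at most 25 nt were found for 209 (2.20%). Since the rule bars listed sites within 100 nt, every gap this short led to a signal-less site by construction, in both kinds.

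The 9498 sites were spread over 6139 runs, which was 24.0% of the 25530 runs with 2 or more sites. Of these runs, 4182 held 1 signal-less run site, 1263 held 2, 531 held 3 to 4 and 163 held 5 or more. The last group accounted for 1049 sites, or 11.04%. In 252 runs no site had a listed hexamer at all, and these held 610 sites (6.42%). Runs around signal-less run sites had a median of 5 sites, against 4 for listed sites of the same spacing, and on the log2 scale the mean number of sites was higher by 0.33 ± 0.10 (SD, n = 19 autosomes, adjusted p = 1.33e-05, permutation test). Without runs of 10 or more sites it was higher by 0.20, and with all listed sites of runs as the comparison by 0.18.

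The 10 runs that held most of them contained 127 signal-less run sites, or 1.34% of all, among 285 sites, of which 132 had a listed hexamer. The run with most lay on the plus strand of chromosome 8 (chr8:86714167-86727689, mm9) and had 17 signal-less run sites among 34 sites. There 7 sites had AATAAA, and the densest 1 kb, which began 10.9 kb into the run, held 6 signal-less run sites. The next lay on the minus strand of chromosome 6 (chr6:124863480-124869152), where 16 of 28 sites were signal-less run sites and 6 had a listed hexamer. On the minus strand of chromosome 5 (chr5:143664771-143668318), the first 14 sites of a run of 3.55 kb were all signal-less run sites, 21 to 145 nt wide. The 5 listed sites of that run lay downstream of them, and the last site had AATAAA. All 3 runs thus held more signal-less run sites than sites with a listed hexamer.

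Of the other runs, those on chromosomes 19, 9, 4, 8 and 17 also held more signal-less run sites than listed sites. Their listed sites numbered 10, 5, 3, 4 and 4. The runs on chromosomes 7 and 1 held fewer signal-less run sites than listed sites, with 17 and 62 listed. The run of 35 sites on the minus strand of chromosome 7 (chr7:52712753-52721506) held 13 signal-less run sites up to 405 nt wide, and that on the minus strand of chromosome 19 (chr19:23206602-23216206) held 13 with a median width of 87 nt, of which 13 had an opposite-strand site at 1 to 3 kb upstream (the measure is treated in full further on). In the run with 17 such a partner was present for 14 of them. The counts were 12 of 13 on chromosome 7, 10 of 14 on chromosome 5 and 10 of 11 on chromosome 4. They were 6 of 16 on chromosome 6 and 6 of 12 on chromosome 9. In the chromosome 8 run of 15 sites and that on chromosome 17 they were 4 of 11 and 4 of 10. On the minus strand of chromosome 9 (chr9:61759252-61762207), 8 of 12 signal-less run sites lay within 1 kb. The plus-strand runs on chromosome 4 (chr4:155068931-155072296) and chromosome 8 (chr8:73930995-73934631) had 11 each among 15 sites. The run of these 10 with the most sites, on the minus strand of chromosome 1 (chr1:88239954-88254802), had 76 sites, of which 62 had a listed hexamer and 10 were signal-less run sites, with an upstream partner for 0 of these 10. A plus-strand run on chromosome 17 (chr17:35379700-35388273) held 10 among 15 sites. Of the 10 runs, 5 ended in a listed site, in 2 cases AATAAA, and 3 began with a listed site.

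**Figure D3:**
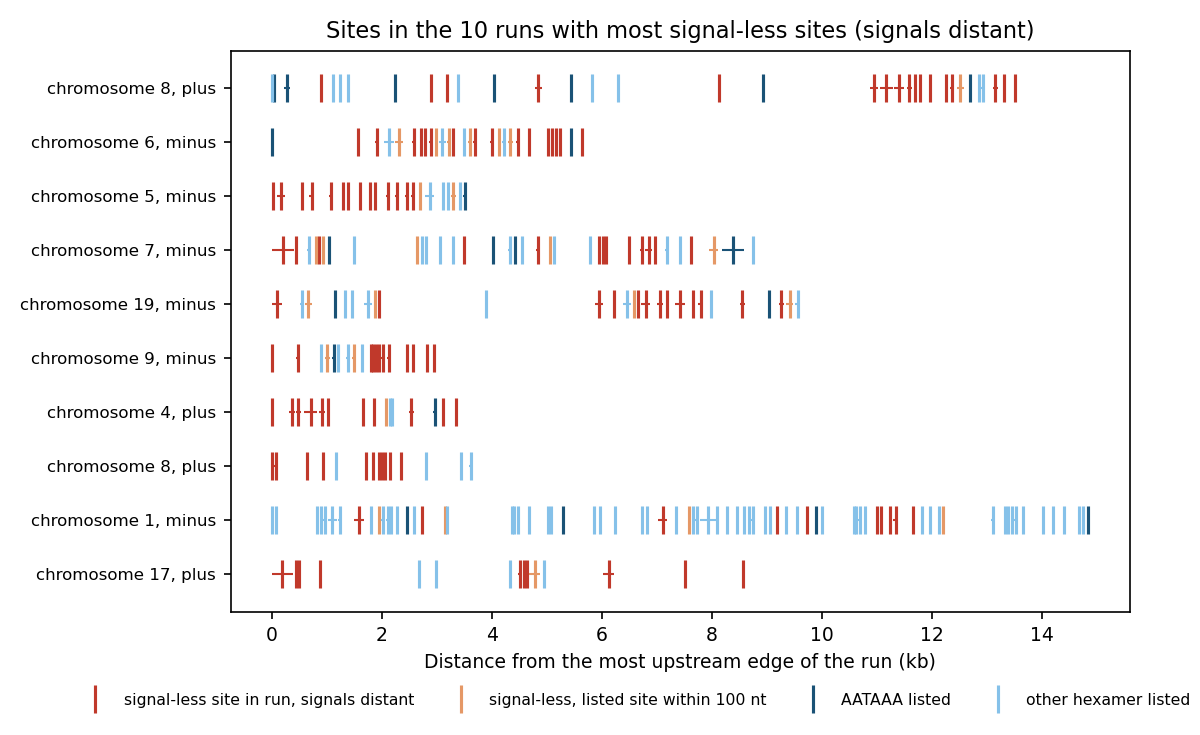
Sites of the 10 runs with most signal-less run sites, placed by their distance in kb from the most upstream edge of the run, with transcription running to the right, ticks at site midpoints and thin bars for site width. Red ticks are signal-less run sites, orange ticks signal-less sites with a listed site within 100 nt, dark blue ticks AATAAA sites and light blue ticks sites with another hexamer. Red ticks crowd together within runs, as at 10.9 kb and beyond in the uppermost run, while the run of 76 sites on chromosome 1 is mostly blue.

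Opposite-strand sites were not part of the selection, and signal-less run sites had them upstream more often than downstream. A site on the opposite strand lay 1 to 3 kb upstream, between midpoints, for 26.7% of them (2536 sites, interval 25.8 to 27.6%), against 16.0% of listed sites of the same spacing (15.7 to 16.3%). It was more frequent by 10.5 percentage points ± 3.21, on 19 of 19 autosomes (SD, n = 19; sign-flip permutation test, adjusted p = 1.33e-05). At 1 to 3 kb downstream the shares were 17.5% (16.8 to 18.3%) and 14.0% (13.7 to 14.3%), with a difference of 2.89 percentage points ± 2.66, positive on 17 of 19 autosomes (sign-flip permutation test, adjusted p = 0.000137). Upstream exceeded downstream by 9.81 percentage points ± 2.98 in signal-less run sites and by 2.21 ± 1.31 in listed sites, in each on 19 of 19 autosomes (SD, n = 19, not tested). Transcript starts were not read, so how such pairs arise was not tested.

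The upstream difference was smaller between sites of the same runs. In the 5644 runs that held both kinds, each run counted equally, an upstream opposite-strand site was present for 24.2% of signal-less run sites and 22.0% of listed sites. This difference of 2.21 percentage points was still positive on 18 of 19 autosomes (sign-flip permutation test, adjusted p = 0.00012), while the downstream difference within runs was 0.408 (sign-flip permutation test, adjusted p = 0.183). By position in the run, the upstream share was 24.5% for most upstream, 28.0% for middle and 27.2% for most downstream signal-less run sites, against 16.0%, 16.7% and 15.4% of listed sites.

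The opposite-strand pairs were concentrated about 2 kb upstream. Per 100 signal-less run sites there were 8.23 pairs at 2 to 2.25 kb upstream (782 pairs), against 4.03 per 100 listed sites, and 4.36 at the same distance downstream. For listed sites the highest value of the whole profile was 4.52, at 0 to 0.25 kb downstream, where signal-less run sites had 3.95. Overlap of a site with a site on the opposite strand was rare for both, at 1.11% (105 sites, interval 0.914 to 1.34%) and 1.74% (1.64 to 1.85%). The difference in overlap was -0.619 percentage points ± 0.864, negative on 17 of 19 autosomes (sign-flip permutation test, adjusted p = 0.00708), -1.48 within runs and -1.08 with the most downstream site per run. Any opposite-strand site within 1000 nt was present for 18.7% and 15.0%, with a difference of 3.34 percentage points ± 2.60 (sign-flip permutation test, adjusted p = 4.92e-05). It was 1.87 with the most downstream site per run and turned to -1.74 within runs (sign-flip permutation test, adjusted p = 0.00555).

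**Figure D4:**
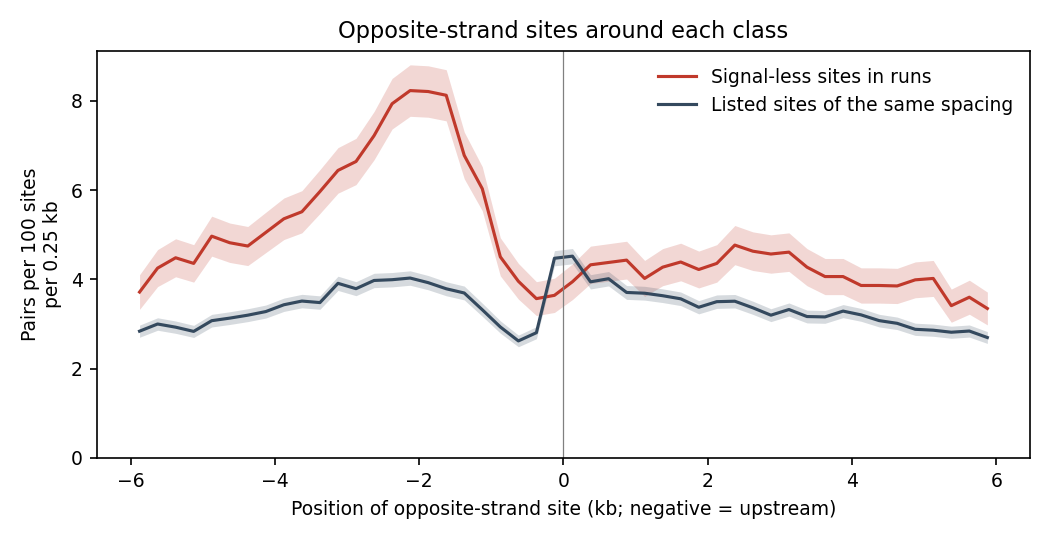
Opposite-strand pairs per 100 sites in steps of 0.25 kb, against the position of the opposite-strand site in kb relative to the site (negative values are upstream), with shaded bands for Poisson counting error (1.96 times the square root of the number of pairs). Signal-less run sites (red) have a broad maximum of 8.23 at 2 to 2.25 kb upstream, where listed sites of the same spacing (dark) have 4.03, and listed sites are highest at 0 to 0.25 kb downstream. The bands take pairs as independent and are too narrow where sites of a run share a partner.

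Upstream partners on the other strand lacked a listed hexamer more often than sites as a whole, though most had one. For 23.1% of the 2536 signal-less run sites with an opposite-strand site at 1 to 3 kb upstream, the closest within that range had no listed hexamer (587, interval 21.5 to 24.8%). The share was 15.3% upstream of listed sites (14.6 to 16.0%), 9.90% downstream of signal-less run sites (8.56 to 11.4%), 8.72% downstream of listed sites, and 10.8% over all sites. The closest upstream partner was itself a signal-less run site for 407 of the 2536, or 16.0% (14.7 to 17.5%), against 6.55% of all sites. These partner shares were not tested, because a pair in which both are signal-less run sites enters once from each side. Sites of the same run can also share a partner, which then counts once for each of them.

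The share with an upstream partner went with the width of the cluster. It was 13.4% for signal-less run sites 1 nt wide (interval 11.7 to 15.4%), 20.8% at 2 to 10 nt (19.4 to 22.3%), 30.2% at 11 to 50 nt (28.9 to 31.6%) and 45.4% above 50 nt (42.4 to 48.5%). The downstream share moved less, from 15.3% at 1 nt (13.4 to 17.4%) to 19.9% above 50 nt. For listed sites of the same spacing the upstream share was 11.9% at 1 nt and 26.4% above 50 nt (24.9 to 28.1%). In the signal-less run sites above 50 nt the upstream share exceeded the downstream share by 26.2 percentage points ± 12.1 over the autosomes and on 18 of 19 of them (SD, n = 19), and in listed sites of that width by 7.14 ± 4.65. Among sites 1 nt wide the upstream share was the higher for signal-less run sites on 4 of 19 autosomes. The split by width was made after the profile had been seen and was not tested.

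**Figure D5:**
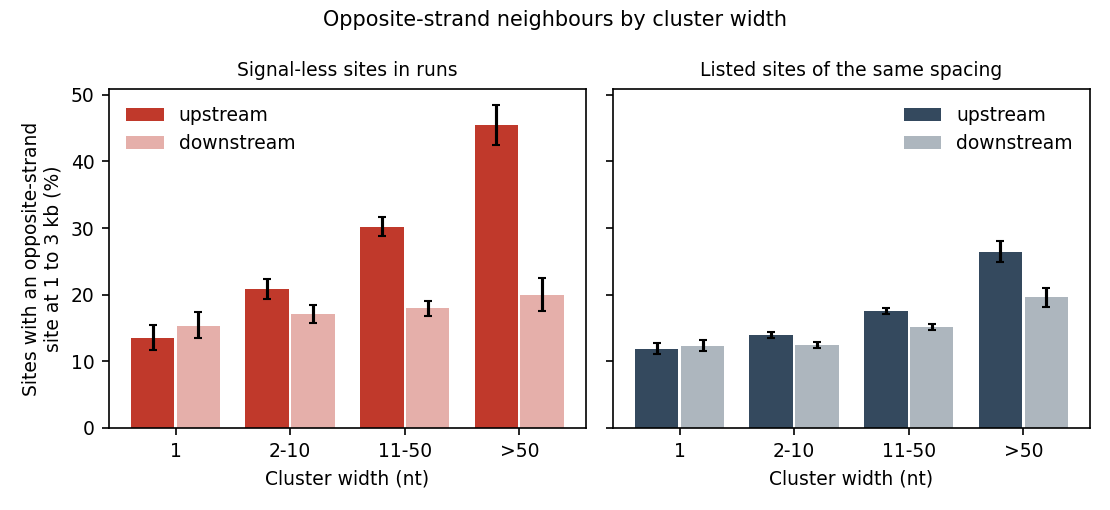
Share of sites in percent with an opposite-strand site at 1 to 3 kb upstream (full colour) or downstream (pale), by cluster width in nt, with 95% Wilson intervals, for signal-less run sites on the left and listed sites of the same spacing on the right. The upstream share of signal-less run sites runs from 13.4% at 1 nt to 45.4% above 50 nt, while their downstream shares stay between 15.3% and 19.9%.

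The clusters differed in width at both ends of the range. Signal-less run sites had a median width of 13 nt, with quartiles of 4 and 29 nt and 5% of them beyond 80 nt, against a median of 11 nt, quartiles of 4 and 22 nt and 5% beyond 50 nt for listed sites of the same spacing. Clusters wider than 50 nt made up 10.9% (1035 sites, interval 10.3 to 11.5%) against 4.94% (4.76 to 5.11%), a difference of 5.81 percentage points ± 2.47, positive on 19 of 19 autosomes (SD, n = 19; sign-flip permutation test, adjusted p = 1.33e-05). Clusters 1 nt wide were also more frequent, at 13.3% (12.6 to 14.0%) against 10.2% (9.97 to 10.5%), a difference of 3.44 percentage points ± 2.82 on 19 of 19 autosomes (sign-flip permutation test, adjusted p = 1.33e-05).

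The excess of wide clusters was not found within runs that held both kinds, with 8.28% of signal-less run sites and 8.52% of listed sites wider than 50 nt (sign-flip permutation test, adjusted p = 0.702), while the excess at 1 nt was 7.04 percentage points there and 5.57 when the last site of either kind was taken from each run. With 1 site of each kind per run the wide excess was 3.32 to 3.71 percentage points. The mean log2 width was higher by 0.17 ± 0.21 (sign-flip permutation test, adjusted p = 0.00375), and within runs the difference was -0.41 (sign-flip permutation test, adjusted p = 1.67e-05), so its direction did not hold under all settings. It was 0.32 without clusters 1 nt wide, 0.093 without runs of 10 or more sites, and -0.0010 without clusters wider than 50 nt. With the most upstream or the most downstream site per run it was -0.025 or -0.0089, and against all listed sites of runs 0.022. The widest signal-less run site spanned 3398 nt on the plus strand of chromosome 17 (chr17:39979973-39983370) with the next site 66 nt downstream. The next widest had 541 nt (chr17:27692715-27693255, minus strand) and 483 nt (chr3:96073693-96074175, plus strand).

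In width, which the selection did not use, signal-less run sites stood between the other kinds of signal-less site. Their median width of 13 nt, with 13.3% at 1 nt, compared with 17 nt and 9.71% for signal-less sites with a listed site within 100 nt, and with 6 nt and 24.98% for isolated ones. An upstream opposite-strand site at 1 to 3 kb was present for 26.7% of signal-less run sites, 25.04% of those with a close listed site (23.6 to 26.5%) and 14.5% of isolated ones (13.3 to 15.9%). Signal-less sites with a close listed site closed a run for 6.64%, against 16.3% of signal-less run sites. Their nearest site lay downstream for 62.4%, against 57.4%, so neither trait was particular to signal-less run sites. These classes were not tested against each other, since isolated sites lie in sparser stretches by definition. At the limits of the rule, 515 signal-less run sites with the nearest listed site over 100 and up to 120 nt away had a median width of 15 nt and an upstream partner in 28.5%, and the 655 signal-less sites just outside, at 81 to 100 nt, had 14 nt and 25.04%. The 161 with their nearest neighbour at 1801 to 2000 nt had a median width of 5 nt and an upstream partner in 20.5%, and the 141 just outside, at 2001 to 2200 nt, had 9 nt and 13.5%.

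The sites were unevenly spread over the chromosomes. They made up 6.44% ± 1.52 of the clusters of an autosome (SD, n = 19), from 3.92 to 9.25%, with the highest value on chromosome 17 (624 of 6748, interval 8.58 to 9.96%), followed by chromosome 8 with 8.56% and chromosome 11 with 8.48%. On the X chromosome it was 4.25% (180 of 4231, 3.69 to 4.91%). As a share of all signal-less sites of an autosome they varied less in relation to the mean, at 59.9% ± 3.52, from 53.1 to 64.9%. The plus strand held 50.3% (49.2 to 51.3%). The random, unplaced and Y sequences held 7 signal-less run sites among 241 sites.

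The identifiers of signal-less sites had gaps. They increased along the file up to 190619, and 15698 of them were present outside the mitochondrial chromosome. Between a signal-less run site and the next signal-less identifier present, on either strand, a median of 5 identifiers was absent on each side, against 4 for sites with a close listed site and 10 to 11 for isolated ones. The immediately adjacent identifier was present for 33.4% of signal-less run sites (interval 32.4 to 34.3%), 36.6% of those with a close listed site and 9.61% of isolated ones. What the absent numbers stood for was not stated, and their part in the results was not tested.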

How the data were processed

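The deposited values were genomic positions, strands, identifiers, hexamer names and hexamer distances in nt, in 1 catalogue for the whole series, with no normalization, per the file headers. Reads had passed through bedtools, STAR and Trimmomatic (no versions named) on mm9, per the submitters' processing notes. How clusters were formed, filtered and searched for hexamers was not stated there. Starts were read as counted from 0 and are printed counted from 1.

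Shares were computed per class with 95% Wilson intervals. For each of 16 measures, the difference between signal-less run sites and listed sites of the same spacing was averaged over 19 autosomes and tested by a 2-sided sign-flip permutation test (100000 resamples, smallest p 1e-05, random seed 1), adjusted by Benjamini-Hochberg at 0.05. Runs and sites were named by rule: the 10 runs with most members, the 3 widest members and the 6 most frequent hexamers, none on chromosome 18. The hexamer A5T is named as the last of 4 with a lower share, after its value was seen. The members, lists and tests were chosen with earlier results of these data known. The measures planned for a genome of the build, A content downstream and signals within 100 nt upstream, were not run. Neighbour finding and the permutation test were tested on simulated data. Software was scipy 1.17.1, pandas 2.3.3, numpy 2.4.6 and matplotlib 3.10.9 under Python 3.11.15. Alternatives covered strand, width limits, the distances of the rule, 1 site per run, dense runs and the comparison set. The comparisons within runs, without the 10 runs with most members and among sites with a listed site within 2000 nt were chosen after seeing the data.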

Additional observations from a re-analysis of the deposited data

How the results depend on the processing

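Of 199 repeats of the 16 comparisons under 13 alternatives, 188 kept direction and side of the threshold, 9 turned direction and 2 lost the call. Some of the 188 could not differ from the main result. The side of the nearest listed site and its AATAAA and A-rich shares kept their main values against all listed sites of runs. They also kept them among sites with a listed site within 2000 nt. Both alternatives left the sites compared for these measures unchanged. The mean log2 width difference of 0.17 was -0.0010 without clusters wider than 50 nt, -0.025 with the most upstream and -0.0089 with the most downstream site per run, 0.022 against all listed sites of runs, and -0.41 within runs. With the most upstream site per run, the difference in nearest site downstream was -11.3 percentage points and that in nearest listed site downstream -26.6. The choice of the first listed site of a run brings these about. With the most downstream site per run these differences were 39.99 and 54.6, which the choice of the last listed site brings about in the same way. Both are nevertheless counted among the 188. Within runs, the share wider than 50 nt differed by -0.240, an opposite-strand site within 1000 nt by -1.74, and one downstream at 1 to 3 kb by 0.408. Another signal-less site within 2000 nt differed there by -54.8, since these runs were chosen to hold a signal-less run site, which is a possible neighbour for listed sites but not for itself. Where no cause is given, the cause was not tested. The upstream opposite-strand difference ran from 2.21 to 11.9 percentage points, and that in the most downstream site of a run from -20.6 to -11.6. No paired analysis was possible because no column belongs to a library, and for the same reason no library could be left out. Depth per library is unknown, so no detection limit can be given.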
